A study of Rattus norvegicus with 6 samples.

Results

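The rat array of this study carried 4 probes for miR-204 and miR-211, 1 for each arm of each precursor. They are named rno-miR-204-5p (MIMAT0000877), rno-miR-204-3p (MIMAT0004739), rno-miR-211-5p (MIMAT0000882) and rno-miR-211-3p (MIMAT0017157), and the species prefix is dropped below. They were found by name among 761 rat miRNA probes. Rat precursors of oligodendrocytes, the myelin-forming cells of the brain and spinal cord, were compared in culture in 2 conditions with 3 samples each. Samples titled DIV0 were kept in the normal growth condition in Raff medium, and samples titled DIV3 were differentiated in Raff medium by changing the growth factors. The numbers in the titles were read as days 0 and 3, so that time in culture and growth condition cannot be told apart. Each sample was total RNA labelled with Cy5 and hybridised to 1 single-colour array. No strain, age or number of animals is given in the labels. The labels do not state whether separate cultures were used, and the spread between samples may thus be technical.

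A miRNA precursor is a hairpin cut into a 5p and a 3p strand, and the strand that is loaded into Argonaute finds its target messages mainly through its seed, bases 2 to 8. miR-204 and miR-211 are paralogues known from pigment cells and epithelia of the eye and the choroid plexus, where the 5p strand is the better studied. They are described as lying within introns of Trpm3 and Trpm1, which encode ion channels. In melanocytes, miR-211 is transcribed with its host under the pigment cell factor MITF. The gene table placed both miRNA genes inside the bounds of these hosts, while introns were not checked because it lists no exons.

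The mature sequences, from the RefSeq table for the assembly GRCr8, show which of the 4 strands can be read as a family. They are written 5′ to 3′ with the seed in capitals.
miR-204-5p: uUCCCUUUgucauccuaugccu
miR-211-5p: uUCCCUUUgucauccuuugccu
miR-204-3p: gCUGGGAAggcaaagggacguu
miR-211-3p: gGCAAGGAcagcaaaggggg
The 5p strands had the same seed and were identical at 21 of 22 positions, with the single difference A17U counted from 1 at the 5′ end, miR-204-5p first. Of the 685 array miRNAs with a RefSeq mature sequence, only these 2 had the seed UCCCUUU. The 3p strands shared neither that seed nor one with each other, and no other of the 685 had either of their seeds. The 2 strands that were lower in DIV3 in every pair, miR-204-5p and miR-211-3p, therefore had different seeds. Since the 5p strands differ by a single base and the sequences of the array probes are not given in the sources used here, whether each probe also captures the other 5p strand was not tested.

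The hairpins show how the strands lie in their precursors, with the mature strands in capitals.
Mir204: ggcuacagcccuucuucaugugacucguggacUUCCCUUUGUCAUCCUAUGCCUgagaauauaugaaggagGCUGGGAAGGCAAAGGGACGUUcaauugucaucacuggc
Mir211: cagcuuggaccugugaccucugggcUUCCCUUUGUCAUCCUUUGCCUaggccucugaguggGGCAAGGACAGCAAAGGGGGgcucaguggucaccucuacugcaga
Mir204 lies at chr1:229743461-229743570 and Mir211 at chr1:127189328-127189433, both on the plus strand of GRCr8. The 3p strands had 8 bases in common, GCAAAGGG, which no other of the 685 array miRNAs held. It includes CAAAGGG, the exact complement of bases 3 to 9 of both 5p strands, most of which belong to the seed. The 3p strands were rich in G, with 10 in the 22 bases of miR-204-3p and 10 in the 20 bases of miR-211-3p, against 2 in each 5p strand.

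All 4 probes were detected on all 6 arrays, where detected means a spot brighter than the mean of the blank spots by 2 of their SD. miR-211-5p was the nearest to the blanks, at 8.39 to 15.1 blank SD above their mean, and miR-204-3p the farthest, at 487.4 to 1100 SD. Detection alone says little here, as 32.6% to 45.2% of the spots with no probe also passed. The DIV0 array of replicate 3 was dimmer than the others, with the median miRNA spot 5.87 units above the blanks against 25.5 to 44.7 units. The direction of the replicate 3 differences below thus rests on scaling the arrays to each other. As a check of the labels, a list of 5 miRNAs known to accumulate in maturing oligodendrocytes was read, and all passed as higher in DIV3 by limma. Their median log2 difference was 2.22. The list held both strands of miR-338, the 5p strand of miR-219a, its 3p strand miR-219a-2-3p, and miR-138-5p. The 3p strand of the other miR-219a precursor, miR-219a-1-3p, was not listed. It was lower in DIV3 in 3 of 3 pairs, by -0.13 in the fit, and was not called. The list was chosen with earlier results known, which makes this a weak check.

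The miR-204 and miR-211 probes were chosen by their DIV3 and DIV0 levels on these same arrays. miR-211-3p had passed the threshold of the comparison, and miR-204-5p had passed it in a fit that pairs arrays of equal replicate number. Their differences are therefore given as a description, without p-values. In the fit across all miRNAs (limma, Benjamini-Hochberg adjusted p under 0.05), 14 of 695 tested miRNAs were called, 2.01%. Of the 4 probes miR-211-3p was called. With the replicate number as a block, 26 were called, 3.74%, and of the 4 probes miR-211-3p and miR-204-5p. With 1 array left out, miR-211-3p was called only without the DIV0 array of replicate 2, where 7 of the 695 miRNAs were called. Without the DIV0 array of replicate 1, 13 of the 695 were called, and without any other array 0. Without both arrays of replicate 1 the block called 0 of the 4 and 1 of the 695. It called 2 and 41 without replicate 2, and 0 and 0 without replicate 3. With the slide as a fixed block, 0 of the 4 probes and 0 of the 695 miRNAs were called by limma, 87 of them at an unadjusted p under 0.05. This fit gave the same values as the replicate block without replicate 3 and is not a separate check. As this contrast chose the members, nothing is read from these counts. Levels below are log2 of the background-corrected, quantile-normalized intensity plus 50 units, unless deposited units are named. Levels of different probes are not compared, because probes differ in brightness for equal amounts of RNA.

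**Figure D1:**
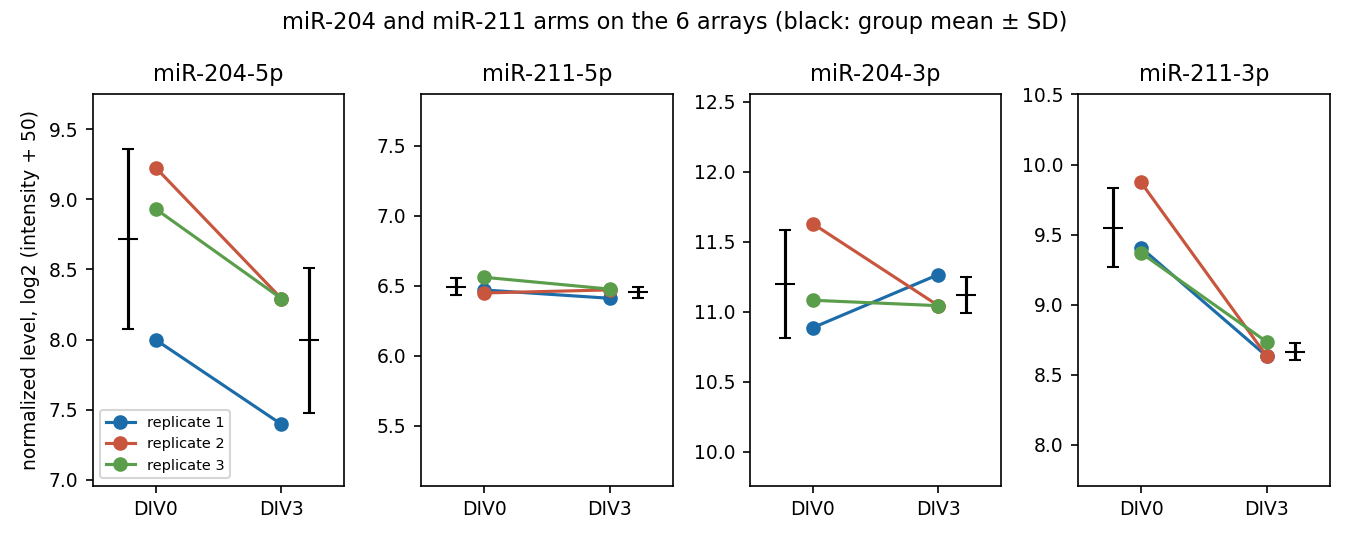
Normalized level, log2 (intensity + 50), of the 4 strands on the DIV0 and DIV3 arrays, with lines joining arrays of equal replicate number and black bars for the group mean ± SD (n = 3). All axes span the same log2 range: miR-211-3p was lower on every DIV3 array than on any DIV0 array, miR-204-5p was lower within every pair while its groups overlapped, and miR-211-5p stayed between 6.41 and 6.56.

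miR-211-3p, the strand opposite the well-studied miR-211-5p, stood at 9.41, 9.87 and 9.37 in DIV0 (replicates 1, 2 and 3 in this order, here and below). It stood at 8.63, 8.63 and 8.73 in DIV3. The groups did not overlap, and the DIV3 arrays lay closer together than the DIV0 arrays, among which replicate 2 was the highest. Groups that do not overlap, lower in DIV3, were found for 61 of the 695 tested miRNAs, 8.78%. The mean was 9.55 ± 0.28 in DIV0 and 8.67 ± 0.06 in DIV3 (SD, n = 3), a log2 difference of -0.88 ± 0.14 (SE), or 0.542 times the DIV0 level. It was the lowest of the 695 differences, which had a median of -0.006 and a 10th percentile of -0.20. Within the pairs of replicates 1, 2 and 3 the differences were -0.78, -1.24 and -0.64. The size thus varied between pairs, with pair 2 the largest. In a bulk sample, fewer cells that make a miRNA and less of it in each cell cannot be told apart.

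In the authors' deposited intensity values, miR-211-3p read 554, 604 and 433 units in DIV0 and 314, 261 and 296 in DIV3. These groups did not overlap either, with means of 530.3 ± 87.9 and 290.3 ± 27.0 (SD, n = 3). The values come from the same arrays and are not separate support. How many of all miRNAs did not overlap in them was not counted. The log2 ratios within pairs were -0.82, -1.21 and -0.55, close to those of the normalized levels. The spot was brighter than the area around it on all arrays, by 2.10 to 6.25 times. With the local area as background the difference was -0.68 ± 0.22 (SE), and without the DIV0 array of replicate 2, the highest, it was -0.72 ± 0.06. Under scaling of each array by its median after the 50 units were added, it was -0.29 ± 0.48, so its size relative to the spread depended on that choice.

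miR-211-5p, the strand of the same hairpin that carries the family seed, was dim. Its deposited values were 31, 26 and 27 units in DIV0 and 30, 27 and 26 in DIV3, which overlap throughout. The normalized levels were 6.47, 6.45 and 6.56 in DIV0 and 6.41, 6.47 and 6.48 in DIV3. The mean difference was -0.04 ± 0.06 (SE), and the pairs gave -0.06, 0.02 and -0.08. The 50 added units exceeded its own signal of 35.0 to 44.3 units after normalization, so a change in its level is compressed on this scale. The deposited values carry no such addition, and their log2 ratios within pairs were -0.05, 0.05 and -0.05. At this brightness no difference between DIV0 and DIV3 was detectable for miR-211-5p. Its log2 change exceeded that of miR-211-3p by 0.72, 1.26 and 0.55 in the 3 pairs, a mean of 0.84 ± 0.37 (SD, n = 3 pairs). The strands of this hairpin thus did not change by the same amount in any pair, a contrast between a bright and a dim probe that was not tested. As miR-211-3p was chosen for its difference, such a gap was favoured by the choice.

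miR-204-5p, the other carrier of the UCCCUUU seed, had normalized levels of 7.999, 9.23 and 8.93 in DIV0. In DIV3 they were 7.40, 8.29 and 8.29. The groups overlapped, because replicate 1 was the lowest in both conditions. The mean was 8.72 ± 0.64 in DIV0 and 7.99 ± 0.52 in DIV3 (SD, n = 3), with a difference of -0.73 ± 0.38 (SE), or 0.604 times the DIV0 level. Under median scaling after the 50 units were added it was -0.13 ± 0.52. Its spread within groups, a pooled SD of 0.58, was larger than that of 99.0% of the tested miRNAs, whose median was 0.10. Within pairs the differences were -0.60, -0.94 and -0.64, with a mean of -0.73 ± 0.18 (SD, n = 3 pairs). Most of its spread was therefore between replicate numbers and not within them, and its standard error was 0.08 with the replicate number as a block. Being lower in DIV3 in 3 of 3 pairs was shared by 20.6% of the tested miRNAs. Of the 4 probes, miR-204-5p and miR-211-3p did so. The difference was the fifth lowest of the 695.

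The deposited values of miR-204-5p were 168, 367 and 297 units in DIV0 and 107, 199 and 208 in DIV3. Again replicate 1 was the lowest of each group, and the groups overlapped. The means were 277.3 ± 101 and 171.3 ± 55.9 (SD, n = 3), and the log2 ratios within pairs were -0.65, -0.88 and -0.51. The order of the spot among the 761 miRNA spots of its array, counted from the brightest, was 109, 64 and 72 in DIV0 and 150, 93 and 93 in DIV3. The equal places of replicates 2 and 3 gave them equal levels after quantile normalization. Leaving out 1 array gave differences of -1.09 without the DIV0 array of replicate 1 and -0.43 without the DIV3 array of replicate 1, the ends of that range.

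The area around the miR-204-5p spot was as bright as the spot or brighter on several arrays. Before correction the spot read 293.3, 889.2 and 175.3 units in DIV0 and the area around it 329.8, 3093 and 173.2 units. In DIV3 the spot read 214.0, 653.5 and 541.8 units and the surrounding area 159.9, 623.1 and 518.0 units. On the DIV0 array of replicate 2 the surround was 3.48 times the spot, the highest such ratio of the 761 miRNA spots, although the areas around the 5 adjoining miRNA spots read 157 to 234 units there. With this area as the background, the difference of miR-204-5p turned to 0.60 ± 0.32 (SE), and it was 0.25 ± 0.10 without that array. Its level stayed lower in DIV3 with no background correction (-0.53 ± 0.28) and in the deposited values with 16 units added (-0.63 ± 0.29), and of the ways of processing tried, the direction turned only in those with the surrounding area as the background. The surrounding areas followed their spots across the whole array, with log intensities that correlated at 0.939 to 0.982 over the 761 miRNA spots, and the tie was not tested.

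**Figure D2:**
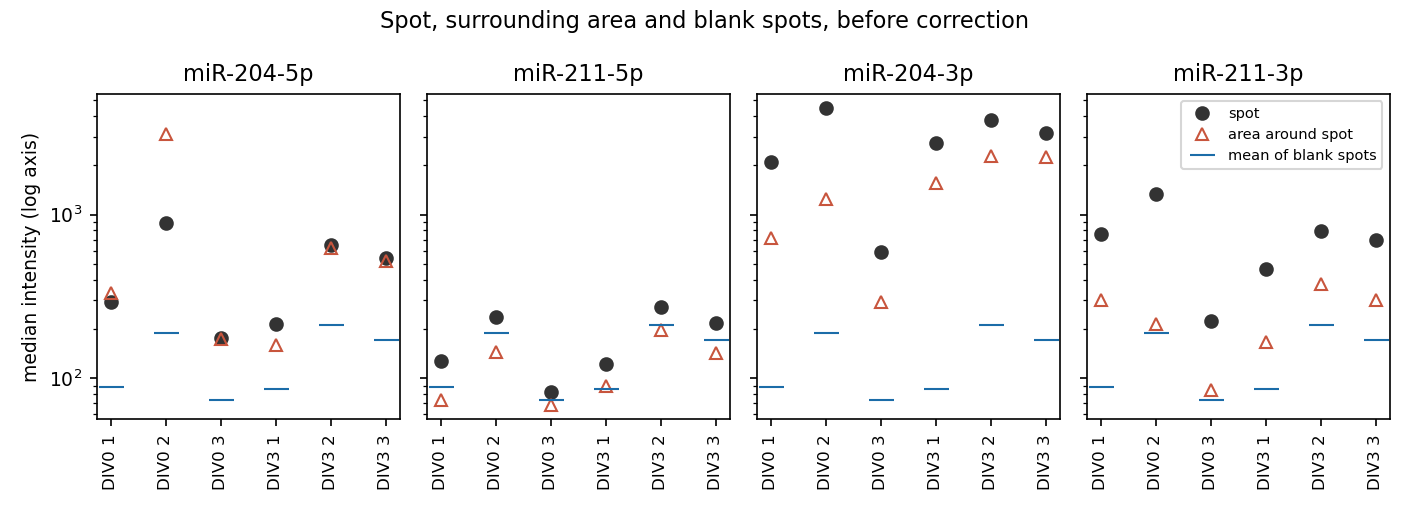
Uncorrected median intensity (log axis) of each spot (filled circles), of the area around it (open triangles) and the mean of the blank spots (blue lines) on each array. The miR-204-5p spot lay below its surround on 2 DIV0 arrays (replicates 1 and 2) and within 5% of it on 3 others, while the miR-211-3p spot lay above its surround throughout.

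miR-204-3p, the strand opposite miR-204-5p, was a bright spot. Its normalized levels were 10.89, 11.63 and 11.08 in DIV0 and 11.27, 11.04 and 11.04 in DIV3. The DIV3 values lay within the range of the DIV0 values. The difference was -0.08 ± 0.19 (SE), and the pairs went different ways, with 0.38, -0.59 and -0.04. The deposited means were 1804 ± 383 in DIV0 and 1819 ± 333 in DIV3 (SD, n = 3). Its difference was 0.58 relative to the median of all miRNAs under median or 75th percentile scaling after the added units, and 0.17 without either array of replicate 2. No direction can be given for it. The log2 change of miR-204-5p was below that of miR-204-3p by 0.98, 0.35 and 0.60 in the 3 pairs, a mean of -0.64 ± 0.32 (SD, n = 3 pairs), so the strands of this hairpin also differed in each pair. With the local background this order turned, since miR-204-5p then stood at 0.60 and miR-204-3p at -0.39. As miR-204-5p was chosen for its difference, the gap before that change of background was favoured by the choice.

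**Figure D3:**
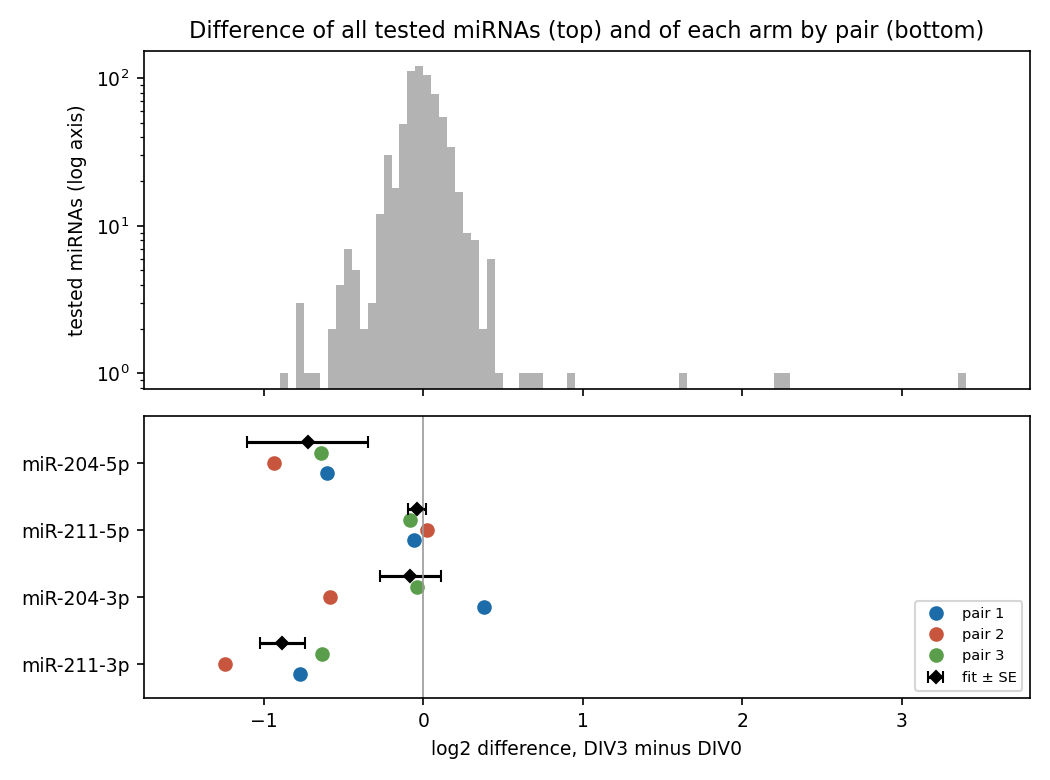
Number of the 695 tested miRNAs (log axis) by log2 difference, DIV3 minus DIV0 (top), and the same difference for the 4 strands within each pair of equal replicate number and in the fit ± SE (bottom). The pairs of miR-211-3p and miR-204-5p lay between -1.24 and -0.60, those of miR-211-5p within 0.09 of 0, and those of miR-204-3p on either side of 0.

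Set side by side, the strands with the same seed differed from each other. In the pairs numbered 1, 2 and 3 the log2 change of miR-204-5p was below that of miR-211-5p by 0.54, 0.96 and 0.56, a mean of -0.69 ± 0.24 (SD, n = 3 pairs). With the local background this order turned as well, with miR-204-5p at 0.60 and miR-211-5p at -0.04. The change of miR-204-3p was above that of miR-211-3p by 1.16, 0.66 and 0.60. With the local background these 2 strands lay closer together, at -0.39 ± 0.21 for miR-204-3p and -0.68 ± 0.22 for miR-211-3p (SE). The changes of miR-204-5p and miR-211-3p, from different hairpins and opposite arms, differed by 0.17, 0.31 and -0.0044, miR-204-5p minus miR-211-3p. With the local background they went opposite ways, at 0.60 and -0.68. Within groups, the DIV0 array of replicate 2 lay above its group mean by 0.51 for miR-204-5p, 0.43 for miR-204-3p and 0.32 for miR-211-3p, while miR-211-5p deviated by -0.04. Its pair gave the largest drop of each of the first 3. On the DIV0 array of replicate 1 all strands lay below their group means. The deviations there were -0.72 for miR-204-5p, -0.31 for miR-204-3p, -0.14 for miR-211-3p and -0.02 for miR-211-5p. On the remaining arrays the strands went different ways. The DIV0 array of replicate 3 deviated by 0.21 for miR-204-5p but by -0.12 for miR-204-3p and -0.18 for miR-211-3p, and the DIV3 array of replicate 1 by -0.60 for miR-204-5p and 0.15 for miR-204-3p.

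By the smallest root mean square difference of centred levels over the 6 arrays, the profiles nearest to miR-211-3p were those of miR-31a-5p (0.12), miR-328a-5p (0.17) and miR-21-5p (0.20), in log2 units. This measure includes the contrast that chose miR-211-3p and miR-204-5p, so other miRNAs lower in DIV3 were favoured as their nearest. No link between the miRNAs is read from it. In the pairs, miR-31a-5p differed by -0.64, -1.04 and -0.65 and miR-328a-5p by -0.47, -0.80 and -0.72, with pair 2 the largest as for miR-211-3p. For miR-21-5p the pairs gave -1.10, -0.67 and -0.56, with pair 1 the largest. The profiles nearest to miR-204-5p were farther off: miR-24-3p (0.33), miR-3593-3p (0.39) and miR-31a-5p (0.40). Those nearest to miR-204-3p were miR-505-3p (0.08), miR-466b-3p (0.12) and miR-770-3p (0.13), and those nearest to miR-211-5p were miR-200a-3p, miR-200c-3p and miR-3585-5p (0.02 to 0.03), dim probes that all differed little between arrays.

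Markers of other cells that the culture could hold were read beside these values. Of 9 miRNAs known from pigment and other epithelia, where miR-204 and miR-211 are best known, 3 were detected on all arrays, and 0 rose and 0 fell by limma, with log2 differences of -0.09 to 0.20. Their deposited values summed to 62 to 83 units in DIV0 and 76 to 109 in DIV3. Missing values were left out of these sums, and which of the 9 were missing differed between arrays. The 4 miRNAs of microglia and blood were detected on all arrays, with 0 called by limma without the block and 1 lower with it, and summed to 153 to 445 units in DIV0 and 167 to 330 in DIV3. That one, miR-223-3p of myeloid cells, had deposited values of 130, 266 and 84 in DIV0 and 81, 190 and 76 in DIV3 (-0.45 ± 0.37 (SE), adjusted p = 0.69 by limma, and 0.038 with the replicate block). It was thus lower in 3 of 3 pairs, as were miR-204-5p and 20.6% of the tested miRNAs. Both were highest on the DIV0 array of replicate 2. The lowest deposited value of each group was in replicate 3 for miR-223-3p (84 and 76) and in replicate 1 for miR-204-5p (168 and 107). The part of myeloid cells in the values of miR-204 and miR-211 was not tested. Of the 3 neuronal, 2 endothelial and 3 mural or fibroblast miRNAs, 0 rose and 0 fell with or without the block, with log2 differences of -0.10 to 0.18.

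The DIV0 and DIV3 arrays of replicate 1 shared a slide, as did those of replicate 2, but not those of replicate 3. With the slide as a fixed block, which leaves the pairs within slides 1 and 2, the log2 differences were -0.77 ± 0.11 for miR-204-5p, -1.01 ± 0.14 for miR-211-3p, -0.10 ± 0.25 for miR-204-3p and -0.02 ± 0.08 for miR-211-5p (SE), and none of the 4 was called. Every DIV0 array occupied position 1 on its slide and every DIV3 array position 2, so that condition and place on the slide cannot be told apart.

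**Figure D4:**
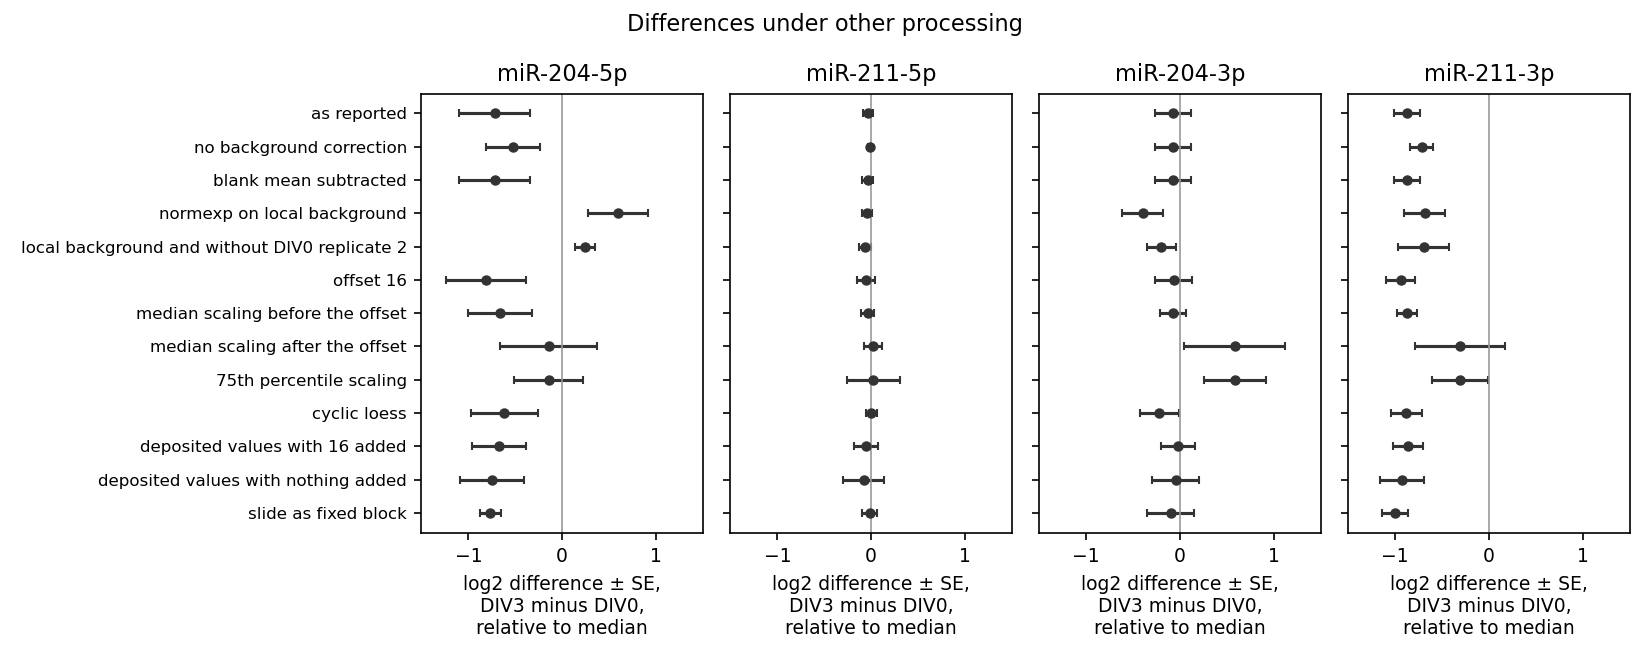
Log2 difference, DIV3 minus DIV0, relative to the median of all tested miRNAs, ± SE, of the 4 strands under 13 ways of processing. miR-211-3p lay below 0 in all of them, from -1.01 to -0.31, and miR-204-5p in all but those with the local background, where it was 0.60 and 0.24.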

How the data were processed

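Each of the 6 scanner files lists, for 3200 spots, an uncorrected median spot intensity and that of the surrounding area, read at 3 gains that were joined by linear fits, per the file headers. The authors also deposited a table of processed intensity values, linear, with a median of 25 in each column. The sources used here do not say how it was made, and it was used only beside the main values. The 4 probes were linked to it by mature ID.

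Spot intensities were corrected by normexp on the 1664 BLANK spots (limma 3.58.1, R 4.3.3), 50 units were added, and log2 values were quantile-normalized over 761 miRNA probes. The highest and lowest 5% of blanks were left out of the detection threshold. The 1 flagged miRNA spot was dropped. Fits covered the 695 miRNAs detected on 3 or more arrays, by lmFit and eBayes, two-sided. The steps were tested on simulated data. Arrays of equal replicate number, numbered in the titles, deviated together from their group means (correlations of 0.37, 0.54 and 0.47) and were taken as pairs. The labels do not say what a replicate number marks, and the pairing and the replicate block rest on these same data. The arrays of pair 1 shared a slide, as did those of pair 2, so slide and replicate number cannot be told apart there.

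The members, lists and rules were chosen with earlier results of these data known. The rule for named miRNAs took all miR-204 and miR-211 probes, the 3 nearest profiles of each, the marker lists by counts, and adjoining spots. RefSeq sequences (GRCr8) matched 4 of 4 probes. The number of arrays limits the precision.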

Additional observations from a re-analysis of the deposited data

How the results depend on the processing

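The difference of miR-211-3p stayed below 0 under every setting run, and that of miR-204-5p under all but those with the local background. All settings used values scaled between arrays. With the blank mean subtracted and no scaling, pair 3, which held the dim DIV0 array, gave log2 ratios of 1.83 for miR-211-3p and 1.86 for miR-204-5p. Those of miR-204-3p and miR-211-5p were 2.51 and 2.32. In pairs 1 and 2 miR-211-3p gave -0.84 and -0.99, and miR-204-5p -0.68 and -0.66. Under normexp on the local background, miR-204-5p stood at 0.60 and miR-204-3p at -0.39, and 0 of the 4 probes and 1 of all miRNAs were called. Under median scaling after the offset miR-204-5p, miR-211-3p, miR-204-3p and miR-211-5p stood at -0.13, -0.29, 0.60 and 0.038, with 0 probes and 4 miRNAs called. Under 75th percentile scaling, where the median of all miRNAs moved to -0.41, miR-211-5p stood at -0.39, or 0.02 relative to it, with 0 and 3 called. Called probes and miRNAs were 0 and 6 with 16 units added, 0 and 6 from deposited values with nothing added, 0 and 0 for a fixed slide block (lowest limma adjusted p 0.057, 87 at an unadjusted p under 0.05) and 2 and 26 with the replicate block. They were 0 and 10 under cyclic loess, 1 and 8 from the deposited values with 16 added, and 1 and 29 with the slide as a random block. With no background correction they were 1 and 19, with the blank mean subtracted 1 and 13, and with median scaling before the offset 1 and 15. The 1 called probe was miR-211-3p each time. Leaving out arrays or pairs, including fits chosen after seeing the data (replicate block on 2 pairs, or the local background without the DIV0 array of replicate 2, which gave 0.25 for miR-204-5p), gave -1.09 to 0.25 for miR-204-5p, -1.01 to -0.69 for miR-211-3p, -0.31 to 0.17 for miR-204-3p and -0.07 to -0.01 for miR-211-5p. The called probes ranged from 0 to 2 and the called miRNAs from 0 to 41, with 13 without the DIV0 array of replicate 1. With 1 array left out, miR-211-3p was called only without the DIV0 array of replicate 2, where 7 miRNAs were called. Without the DIV0 array of replicate 3 or any 1 DIV3 array, 0 miRNAs were called. Detection held on 6 arrays under both other thresholds. The causes were not tested.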

Other observations

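Adjoining spots on the array carried 5 miRNA probes around each of the 4 strands. Those next to miR-204-5p read 79.8 to 421.4 units over the 6 arrays, and their log2 differences, DIV3 minus DIV0, were -0.33 to 0.04. Those next to miR-211-3p differed by -0.05 to 0.46 where tested. Next to miR-204-3p lay the spot of miR-149-3p, which read up to 2836 units and differed by -0.53. On the DIV0 array of replicate 2 the area around the miR-211-3p spot was 0.160 times the spot, the lowest of the 761 ratios, on the same array where the ratio of miR-204-5p was the highest.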
